A study of Mus musculus with 6 samples.

Results

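Kcnq1ot1 and 9 further imprinted genes were followed through 6 mouse hearts. The set was chosen by a measured value: in earlier results of the same arrays Kcnq1ot1 stood out between hearts with different letters in their descriptions, and the other genes were added as imprinted genes. Each gene was read from the probe sets whose annotation names that gene alone. A probe set is the group of short array probes that reads one stretch of a transcript. By that rule 9 of the 10 genes had a probe set, out of 18193 genes on the array, through 34 probe sets. H19, a maternally expressed long RNA, had none, because its 1 probe set is annotated to a second gene as well, so no value is given for it. Of the 34 probe sets, 27 passed a filter that left out the dimmest 40% of the array by the mean over the 6 hearts, and 7 did not.

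The hearts came from C57B6 mice: 3 were wild-type and 3 carried an EphB4 mutation, and whole-heart RNA was read on Affymetrix Mouse430_2 arrays. EphB4 is a receptor of vessel lining cells for ephrin-B2, and the study's title concerns its signalling with heart muscle while the ventricular wall forms. The sources used here do not give the kind of mutation or the age and sex of the mice. All values are log2 intensities, so a difference of 1 is a 2-fold difference, and the 3 arrays per group limit the precision. Each sample description also begins with a pair of letters. Hearts 1 and 2 of either genotype have eI and heart 3 of either genotype has eM, so the letters are balanced over the genotypes. Their meaning is not stated.

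Imprinted genes are transcribed mainly from the copy inherited from a single parent. In most cases this goes back to a DNA methylation mark laid down in the egg or sperm. Many of them act on fetal growth, with paternally expressed genes such as Igf2 tending to promote it and maternally expressed genes such as Cdkn1c and Grb10 tending to restrain it. Kcnq1ot1 is a long, mostly unspliced nuclear RNA made from the paternal copy of a cluster on distal chromosome 7, antisense to the potassium channel gene Kcnq1. Its transcription is known to silence neighbouring genes, Cdkn1c among them, on that copy. The arrays do not separate the parental copies, so each value is the sum of both.

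The stretch before the start of Kcnq1ot1 is shown because this transcript differed most among the 9 measured genes, and those of Peg3 and Meg3 because they hold its CCAAT letters too. The 250 bases before each annotated start are given 5′ to 3′ on the gene's own strand, from RefSeq in build GRCm38.p6, with CCAAT or its reverse complement ATTGG in capitals. They lie at chr7:143296548-143296797 (minus strand) for Kcnq1ot1, at chr7:6730420-6730669 (minus strand) for Peg3 and at chr12:109540746-109540995 (plus strand) for the first start of Meg3.
Kcnq1ot1: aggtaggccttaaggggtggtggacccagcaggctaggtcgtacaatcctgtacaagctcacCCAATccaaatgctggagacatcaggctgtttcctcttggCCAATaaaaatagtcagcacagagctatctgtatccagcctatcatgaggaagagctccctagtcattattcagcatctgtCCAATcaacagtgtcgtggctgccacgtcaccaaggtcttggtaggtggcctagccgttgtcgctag
Peg3: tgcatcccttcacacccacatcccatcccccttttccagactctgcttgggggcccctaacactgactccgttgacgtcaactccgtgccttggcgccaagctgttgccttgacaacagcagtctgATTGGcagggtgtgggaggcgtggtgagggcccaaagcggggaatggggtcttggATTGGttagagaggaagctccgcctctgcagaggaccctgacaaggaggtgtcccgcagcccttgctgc
Meg3: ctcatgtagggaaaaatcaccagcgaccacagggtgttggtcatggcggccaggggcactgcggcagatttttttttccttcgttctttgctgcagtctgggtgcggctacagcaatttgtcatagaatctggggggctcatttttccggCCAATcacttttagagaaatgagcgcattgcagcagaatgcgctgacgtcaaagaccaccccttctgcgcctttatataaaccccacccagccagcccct
The Kcnq1ot1 window held CCAAT 3 times on the gene strand, starting 188, 148 and 67 bases before the start. At least 3 copies on the gene strand were found in 0.767% of the 32851 promoters in the table. Counted on either strand, at least 3 copies were found in 2.79%, at least 2 in 10.1% and at least 1 in 33.8%. Peg3 held it 2 times on the other strand and Meg3 1 time on the gene strand, and 1 of the 4 Igf2 windows, not shown, held it 1 time on the other strand. The Kcnq1ot1 window held neither TGCCGC nor GGGGCCCC on either strand, letters found at least 1 time in 8.68% and 0.889% of promoters. It held 5 CG pairs, where the median promoter held 6. These matches describe letters in a window and say nothing on binding. Promoters were listed for 8 of the 10 genes; those of H19 and Cdkn1c were not used here.

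Kcnq1ot1 read far higher in the eM hearts than in the eI hearts, in both genotypes. Its probe set of highest mean, 1458161_at, read 7.23, 7.10 and 9.36 in wild-type hearts 1 to 3 and 7.32, 7.01 and 9.38 in mutant hearts 1 to 3. Wild-type 3 and mutant 3 thus lay together, and the 4 eI hearts lay together well under them. The eM mean was 4.61-fold above the eI mean, a log2 difference of 2.20 against an SD of 0.14 among the 4 eI hearts, with 2.19 between the wild-type hearts and 2.22 between the mutant hearts. This contrast had a part in choosing Kcnq1ot1, so the values are a description with no test.

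The other Kcnq1ot1 probe sets did not all show a difference of that size. At 1457781_at the hearts read 6.52, 6.75 and 9.28 in wild-type and 6.99, 6.60 and 9.46 in mutant, which put eM 6.30-fold above eI. At 1442029_at, which the filter left out, they read 3.21, 3.16 and 5.99 in wild-type and 3.47, 3.27 and 6.07 in mutant. No fold is given there, since the eI values lay far under the filter. The remaining 3 probe sets, also left out as dim, differed by 0.49, 0.31 and 0.29 log2, and at the middle one the eM and eI hearts overlapped. The eM hearts therefore lay above all eI hearts at 5 of 6 Kcnq1ot1 probe sets, and at both of those that passed the filter. Among all probe sets tested, 22.8% were above. These probe sets read the same gene in the same hearts, so they are not separate evidence. Where along the transcript each probe set lies was not analysed here. Among all 13572 genes tested, 6 (0.0442%) had both eM hearts above all eI hearts with means at least 4-fold apart. Kcnq1ot1 is itself among the 6 and was chosen partly by this contrast, so the share is no test of it.

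**Figure D1:**
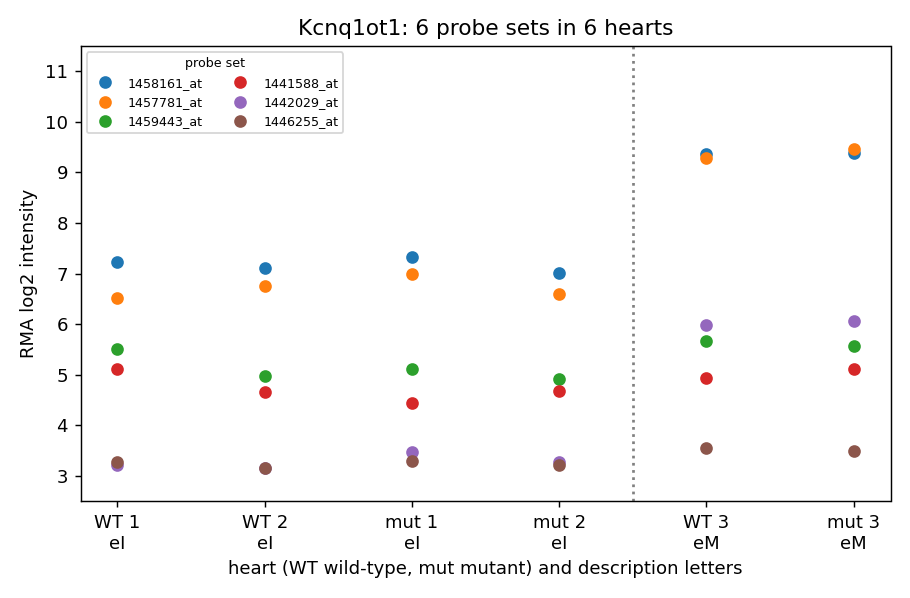
Log2 intensity (vertical axis) of the 6 Kcnq1ot1 probe sets, 1 colour each, in the 6 hearts (horizontal axis), with the 4 eI hearts to the left of the dotted line and the 2 eM hearts to its right. Probe sets 1458161_at and 1457781_at stood 2.20 and 2.65 higher in the eM hearts. Probe set 1442029_at also stood higher, from eI values far under the filter, whereas the other 3 differed by less than 0.5.

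The hearts with the letters eM differed from the others at many genes besides these. Both eM hearts lay above all eI hearts at 20.8% of genes tested and below all of them at 23.8%, or 44.6% in all. Means were at least 2-fold higher in eM at 0.597% of genes and at least 2-fold lower at 1.39%, and the middle part of all genes, from the lower to the upper quartile, lay between -0.19 and 0.15. The beta-actin control probes, where a larger gap between the 3′ and 5′ ends is a sign of shorter RNA, gave a gap of 0.51 to 0.77 in eM against 0.28 to 0.41 in eI hearts. The 3′ control probe set for 18S rRNA read 10.48 to 11.17 against 9.80 to 10.16. The part of RNA quality in the differences by letters was not tested.

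Markers of some other cell types differed by letters as well, mainly the fibroblast and mesenchyme, liver and erythroid lists. Among all genes tested, 20.8% lay above and 23.8% below. List means are given over all markers with a probe set. Of 7 fibroblast and mesenchyme markers both eM hearts lay below all eI hearts at 4 and overlapped at 3, with a list mean of 9.18 to 10.17 against 10.67 to 11.22 in eI hearts. Liver markers were below at 5 of 6 tested genes (list mean 5.13 to 5.41 against 6.34 to 8.01), and erythroid markers at 4 of 4 (9.25 to 9.27 against 9.76 to 10.16). Of the liver markers Afp differed most by letters (-5.83). The top of the eI range for that list was wild-type 2, where Afp read 11.83. Of 6 endothelial markers 1 was above and 3 were below (9.39 to 9.49 against 9.60 to 9.66). Epicardial markers had 2 above and 2 below of 6 (8.53 to 8.63 against 8.26 to 8.81). Neural markers overlapped at all 4 tested genes (6.68 to 7.09 against 6.44 to 6.80). Of the skeletal muscle markers 4 of 7 were too dim to test, the list mean being 5.46 to 5.57 against 5.35 to 5.65, and both placental markers with a probe set were too dim as well (3.80 to 3.94 against 4.10 to 4.52). The 9 heart muscle markers were all measured in every heart, as the tissue label has it, but their list mean was higher in eM hearts too, at 13.47 to 13.49 against 13.31 to 13.35. The calcium channel gene Ryr2 (0.76), Myh6 (0.67) and Myl7 (0.28) lay above, Tnnt2 (-0.19) and Tnni1 (-0.15) below, and 4 overlapped. In whole hearts, fewer cells of a type and less RNA per cell cannot be told apart, and the part of cell makeup in the values of the imprinted genes was not tested.

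Cdkn1c, a cell cycle inhibitor expressed from the maternal copy and a known target of Kcnq1ot1, varied little at its 1 probe set. That probe set was brighter than 99.3% of the array by mean. It read 13.13, 13.16 and 13.25 in wild-type and 13.10, 13.19 and 13.25 in mutant hearts. The eM hearts were the highest of each genotype, by 1.08-fold in the mean. Genes listed as maternally expressed within 1 Mb of Kcnq1ot1 were drawn from the wider list of imprinted genes after values were seen. Whether each is imprinted in the heart, and any effect of Kcnq1ot1 on them, was not tested. Of 9 such genes tested, Cdkn1c among them, both eM hearts lay below all eI hearts at 5, above at 1 and in overlap at 3, where 23.8% of all genes were below and 20.8% above, and the median difference was -0.20. Kcnq1, the channel gene that Kcnq1ot1 overlaps in antisense, read 7.77, 7.49 and 7.42 in wild-type and 7.57, 7.74 and 6.99 in mutant hearts, 1.36-fold lower in eM. Cd81, a tetraspanin of the cell surface, read 13.08, 13.11 and 12.77 and then 13.16, 13.12 and 12.62, or 1.34-fold lower. Ascl2, a transcription factor of the placenta, was 1.40-fold lower at a dim signal, Osbpl5 1.29-fold and Tssc4 1.15-fold lower. Phlda2, a growth restraining gene of the placenta, went the other way by 0.37, with overlap.

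The paternally expressed growth factor Igf2 was steady across the hearts at its probe set of highest mean. It read 14.23, 14.18 and 14.16 in wild-type and 14.27, 14.24 and 14.15 in mutant hearts, a whole range of 0.12 log2. Both eM hearts were lowest, with a difference of -0.075. The highest value of any probe set was 14.75 to 14.79 per array, so this signal lay near the top of the scale. A second, dimmer probe set ran from 5.91 to 6.59 with overlap between the letters. Grb10, an adaptor protein that dampens insulin and IGF signalling, read 13.06, 13.17 and 13.23 in wild-type and 13.13, 13.20 and 13.25 in mutant hearts at its probe set of highest mean, again with eM slightly higher, by 0.10.

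Grb10, Plagl1 and Peg3 gave different answers by probe set. Grb10 at 1430164_a_at read 6.77, 6.90 and 8.23 in wild-type and 7.24, 7.09 and 7.83 in mutant hearts, 2.04-fold higher in eM, and at 1425457_a_at the difference was 0.70. Plagl1 encodes a zinc finger transcription factor that is known to regulate other imprinted genes. Its probe set of highest mean read 13.65 to 13.76 in all hearts with overlap. At 1438588_at it read 7.03, 6.84 and 8.22 in wild-type and 6.62, 6.67 and 7.79 in mutant hearts, 2.32-fold higher in eM, while at 1450533_a_at it read 8.71, 8.84 and 8.38 and then 8.87, 9.10 and 8.08, 1.57-fold lower. The 3 Plagl1 probe sets thus pointed up, down and nowhere by letters, so the gene as a whole has no single direction.

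Peg3, a paternally expressed zinc finger protein of growth and behaviour, was higher in eM at 1 of its 5 probe sets and overlapped at 4. At 1417355_at it read 10.44, 10.17 and 11.15 in wild-type and 9.90, 9.81 and 11.04 in mutant hearts, 2.03-fold higher in eM. At its probe set of highest mean it read 12.84, 12.53 and 12.83 and then 12.69, 12.71 and 12.92, where the letters overlapped. The remaining probe set that passed the filter differed by 0.12 with overlap, and the other 2 were too dim to test. Mest, a paternally expressed hydrolase of mesoderm, had 1 probe set, at 13.56, 13.59 and 13.64 in wild-type and 13.56, 13.52 and 13.72 in mutant hearts, 0.12 higher in eM.

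Dlk1 and Meg3 are neighbours on chromosome 12 and are expressed from opposite parental copies. Dlk1, a paternally expressed membrane protein related to Notch ligands, was lower in eM hearts. It read 8.51, 8.66 and 7.98 in wild-type and 8.86, 8.86 and 8.16 in mutant hearts, 1.57-fold lower in eM, and its dim second probe set was 1.34-fold lower. Meg3, a maternally expressed long RNA, did not separate the letters: eM and eI hearts overlapped at 10 of its 11 probe sets. At the probe set of highest mean it read 12.03, 12.23 and 12.56 in wild-type and 12.60, 12.25 and 12.04 in mutant hearts, so the top and bottom of the range each held both letters and both genotypes. At the exception, 1452906_at, eM lay 0.52 above eI. Rian and Mirg, long RNAs of the same maternally expressed stretch, differed by 0.35 without overlap and by 0.15 with overlap.

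Over all 34 probe sets the eM hearts lay above every eI heart at 13, below at 4 and overlapped at 17, where among all probe sets tested 22.8% were above and 20.3% below. Over the 9 genes, each at its probe set of highest mean, the counts were 4 above, 2 below and 3 in overlap, with a median difference of 0.10 against -0.03 for all genes tested. Since the letters had a part in the choice of these genes, nothing is read from the counts. Apart from Kcnq1ot1 and Dlk1, the 9 genes differed by less than 0.5 at those probe sets.

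**Figure D2:**
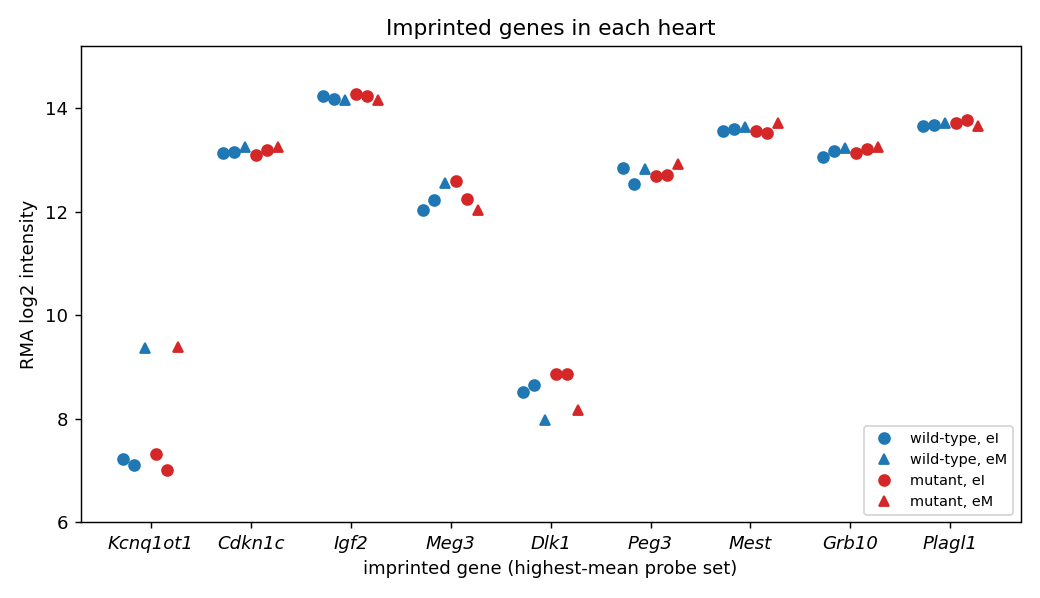
Log2 intensity (vertical axis) of 9 imprinted genes (horizontal axis), each at its probe set of highest mean, with 1 point per heart, colour for genotype and shape for the letters. Kcnq1ot1 splits into 4 eI hearts between 7.01 and 7.32 and 2 eM hearts at 9.36 and 9.38, Dlk1 splits less and in the opposite direction, and levels of different genes are not comparable.

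**Figure D3:**
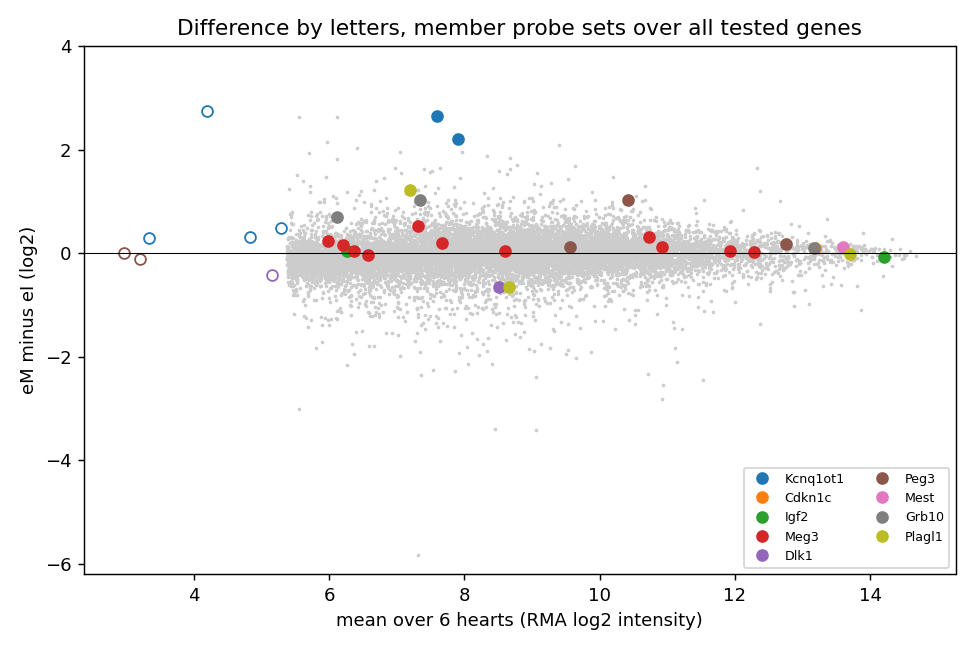
Difference eM minus eI (log2, vertical axis) against the mean over the 6 hearts (log2 intensity, horizontal axis) for all 13572 tested genes (grey) and for the 34 probe sets of the 9 imprinted genes (coloured, open where the filter left them out). The Kcnq1ot1 probe sets 1458161_at (2.20) and 1457781_at (2.65), and 1442029_at, left out by the filter, stand above the other imprinted probe sets. Those lie between -0.65 and 1.21.

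None of the 9 genes passed the test by genotype. The contrast asks whether these growth genes differ between EphB4 mutant and normal hearts. Limma with Benjamini-Hochberg adjustment called 0 of the 9 genes and 0 of their 27 tested probe sets. It also called 0% of all 13572 genes and 0% of all 27022 features on the probe set level. Without adjustment, limma p fell under 0.05 for 0 of the 9 genes, against 0.936% of all genes, and for 0 of their 27 probe sets, against 1.17%. The smallest two-sided p that an exact permutation test of 3 against 3 can give is 0.1.

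The Kcnq1ot1 mean was 7.90 ± 1.27 (SD, n = 3) for normal hearts and 7.90 ± 1.29 (SD, n = 3) for mutants. The wide spread within each genotype is the distance between eI and eM hearts, and it gave a 95% confidence interval of -1.94 to 1.95 for a difference of 0.0030 (limma adjusted p = 0.9997). Within letters the difference was -0.0047 in eI and 0.02 in eM. With the letters as a block the standard error fell from 0.81 to 0.11, and limma still called no gene (adjusted p = 0.9974). With the Xist level as a covariate the difference was -0.68 (limma adjusted p = 1). Xist, which is expressed in female cells, was at 11.51 to 12.33 in mutant 2 and every wild-type heart but at 6.73 and 6.78 in mutants 1 and 3, so sex and genotype were partly confounded.

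Among the other genes Dlk1 differed most, with 8.38 ± 0.36 (SD, n = 3) for normal hearts and 8.63 ± 0.40 (SD, n = 3) for mutants. Its difference of 0.25 had an interval of -0.36 to 0.85 (exact permutation p = 0.5) and was 0.28 within eI and 0.19 within eM. Leaving out mutant 3 gave 0.48, leaving out mutant 1 or mutant 2 gave 0.13, and the values were 0.38 with wild-type 2 left out and 0.04 with wild-type 3 left out. The mean over both Dlk1 probe sets differed by 0.03. Igf2 averaged 14.19 ± 0.04 and 14.22 ± 0.06 (n = 3 each), with an interval of -0.18 to 0.23 for the difference. Cdkn1c averaged 13.18 ± 0.06 and 13.18 ± 0.08, with an interval of -0.21 to 0.22. The intervals for Mest (-0.22 to 0.23), Grb10 (-0.18 to 0.26), Plagl1 (-0.17 to 0.23) and Peg3 (-0.26 to 0.34) likewise took in 0. A 2-fold genotype difference in either direction lies outside the intervals of the other 8 genes at these probe sets, Dlk1 and Meg3 included. This holds for the measured signal only, since saturation could not be checked. The probe sets of Igf2, Plagl1, Mest, Cdkn1c and Grb10 used here were brighter than at least 99.3% of the array by mean. For Kcnq1ot1 a 2-fold difference lies inside the interval of this fit, whose error holds the step between eI and eM hearts. With the letters as a block its difference of 0.0030 had a standard error of 0.11, where a 2-fold difference is 1 log2. Other tested probe sets of the other 8 genes did not all exclude a 2-fold difference in the fit without the letters. The intervals were -1.28 to 0.61 for Peg3 at 1417355_at and -1.43 to 0.76 for Plagl1 at 1438588_at. They were -0.90 to 1.07 for Grb10 at 1430164_a_at and -0.62 to 1.19 for Meg3 at 1436713_s_at.

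Meg3 had the largest change of the genotype difference with the letters among the 9 genes at the probe sets of highest mean. At its probe set of highest mean the mutant hearts were 0.29 higher within eI but 0.52 lower, at -0.52, within eM, and the difference over all hearts was 0.02 with an interval of -0.44 to 0.48. Of its 11 probe sets, which read the same RNA in the same hearts, 8 were higher in mutants within eI and lower within eM. The same held for both Igf2 probe sets and for 2 of 3 of Plagl1, at smaller differences for their probe sets of highest mean. A limma interaction term for genotype and letters gave -0.82 ± 0.27 (SE) with an adjusted p = 0.695, and it called 0% of all genes, with 7.12% at an unadjusted p under 0.05. The eM side of that term rests on 1 heart per genotype. The turn of sign was also seen at 1 of 3 Grb10 and 1 of 6 Kcnq1ot1 probe sets, and at 14 of the 34 in all. The opposite turn, lower in mutants within eI and higher within eM, was seen at other probe sets of the 9 genes. Among them were those of Cdkn1c (-0.0011 and 0.0079) and Mest (-0.03 and 0.09) and 1425457_a_at of Grb10 (-0.07 and 0.19). The share of either turn over all probe sets of the array was not counted, so nothing is read from these counts. Every fibroblast and mesenchyme marker turned as Meg3 did. Some markers of other lists, Tnnt2, Tek and Upk3b among them, did so too, and others, such as Pecam1, did not. The part of cell makeup in this turn was not tested. Col1a1 differed by 0.61 within eI and -0.96 within eM, and Lum by 0.63 and -1.47. At 1 dim Meg3 probe set, 1428764_at, the mutant hearts read 6.38, 6.13 and 6.30, all below the wild-type 6.45, 6.44 and 6.49 (exact permutation p = 0.1). Hearts of the genotypes did not overlap at 4.67% of all probe sets tested, and at 1 of the 27 tested here.

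**Figure D4:**
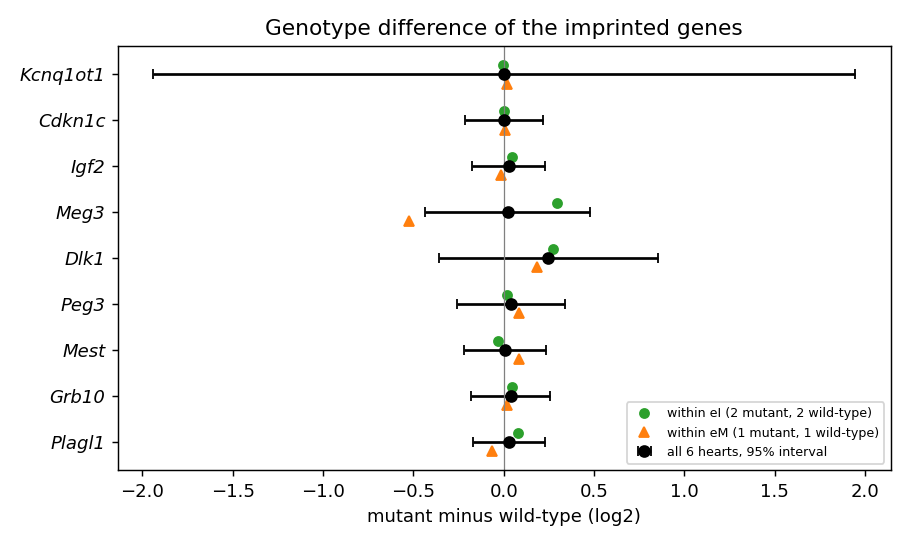
Difference mutant minus wild-type (log2, horizontal axis) of the 9 imprinted genes, with the limma 95% confidence interval over all 6 hearts (black, 3 per genotype), the difference within the eI hearts (green circles) and that within the eM pair (orange triangles). Every interval takes in 0, that of Kcnq1ot1 is widest at -1.94 to 1.95, and Meg3 has differences of 0.29 and -0.52 in the eI and eM hearts.

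The wider set of imprinted genes was read from lists of 23 further paternally and 28 further maternally expressed genes. Of these, 17 and 24 were tested, and 0 of either list passed limma's threshold in the comparison by genotype, with medians of 0.06 and -0.05 against 0.0030 for all genes. The lowest unadjusted p among them was that of Sfmbt2, a Polycomb-related gene, at 6.45, 6.24 and 6.15 in wild-type and 5.85, 5.81 and 6.07 in mutant hearts (limma difference -0.37, adjusted p = 0.9997). Mkrn3, a ubiquitin ligase, read 5.44, 5.06 and 5.40 and then 5.69, 5.51 and 5.50, again without overlap at a dim signal (limma difference 0.27, adjusted p = 0.9997). Hearts of the genotypes did not overlap at 4.39% of all genes, 2.14% with mutants above and 2.25% with mutants below. They did not overlap at 2 of the 17 paternally expressed genes, Mkrn3 above and Sfmbt2 below, at 0 of the 24 maternally expressed genes and at 0 of the 9 genes followed here.

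By letters, both lists held genes on either side, as did all genes tested, with 20.8% above and 23.8% below. Among the paternally expressed genes both eM hearts were above all eI hearts at 8, below at 3 and overlapped at 6, with a median of 0.15. Airn, like Kcnq1ot1 a long antisense RNA made from the paternal copy, showed the largest difference: it read 8.77, 8.90 and 10.03 in wild-type and 9.17, 8.94 and 9.84 in mutant hearts, 1.98-fold higher in eM. Igf2r, the maternally expressed receptor that takes up Igf2 for breakdown and that Airn overlaps, was also higher in eM, at 12.18, 12.28 and 12.71 and then 12.23, 12.14 and 12.60. Zdbf2 was higher by 0.66 and Peg12 by 0.57, while Ddc, an enzyme of amine synthesis, was lower, with a difference of -0.44. Among the maternally expressed genes the counts were 6 above, 9 below and 9 in overlap, with a median of -0.09. Ube3a, a ubiquitin ligase that is imprinted in neurons, differed most: it read 8.92, 9.49 and 10.43 in wild-type and 8.93, 8.90 and 10.54 in mutant hearts, 2.68-fold higher in eM. Pon3, a lactonase, had a difference of -0.85.

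**Figure D5:**
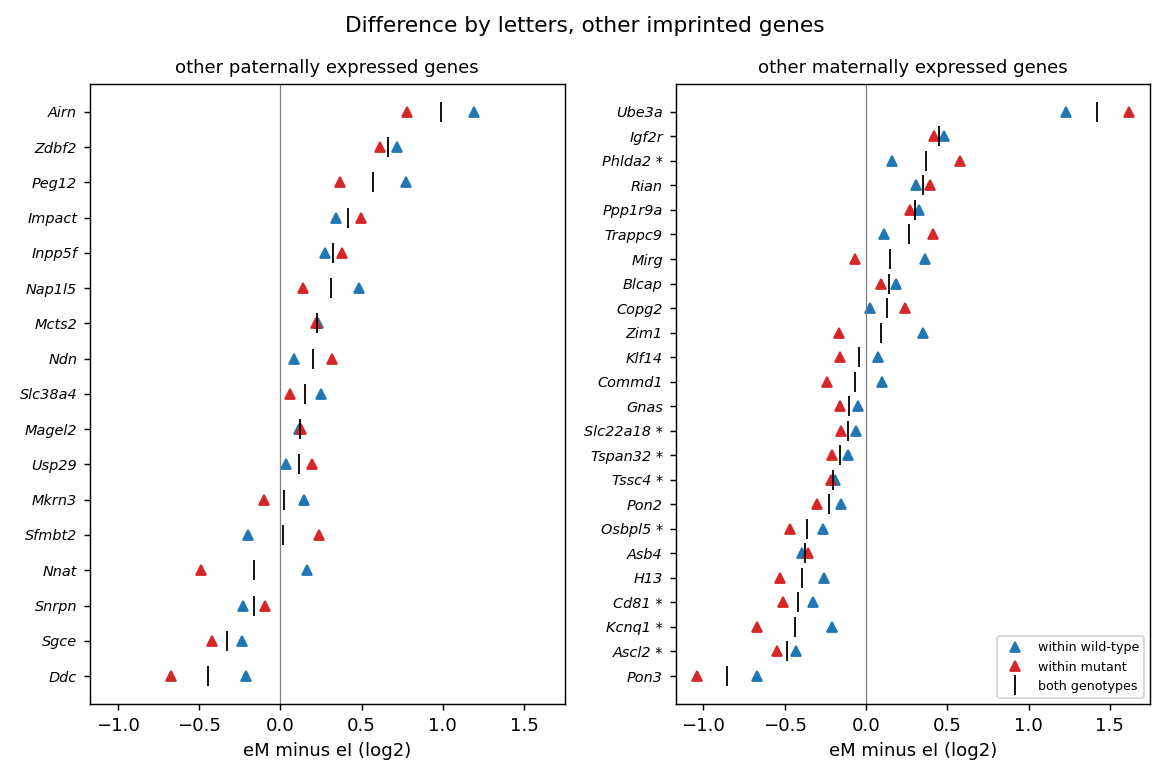
Difference eM minus eI (log2, horizontal axis) of the 17 further paternally expressed (left) and 24 further maternally expressed genes (right) that were tested, with triangles for the difference within each genotype and a bar for both genotypes. Stars mark genes within 1 Mb of Kcnq1ot1. Airn (0.99) and Ube3a (1.42) lie at the top, and 6 of the 8 starred genes, all but Phlda2 and Slc22a18, lie at -0.16 or lower.

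Genes that carry the growth signal of Igf2 were taken from a list of 18, of which 16 were tested. Limma called 0 by genotype (lowest unadjusted p = 0.154 for Irs2, an adaptor of the insulin and IGF receptors, with a difference of -0.38). Igfbp4, a binding protein of IGFs, was the 1 gene of 16 without overlap by genotype, against 4.39% of all genes, at 12.28, 12.28 and 12.13 and then 12.38, 12.40 and 12.34 (limma adjusted p = 0.9997). By letters the counts were 6 above, 4 below and 6 in overlap, against 20.8% above and 23.8% below over all genes. Igf1, the partner growth factor, read 10.52, 10.43 and 9.93 in wild-type and 10.59, 10.38 and 9.17 in mutant hearts, a difference of -0.93, whereas its receptor Igf1r was 0.61 higher in eM. The RNA-binding proteins Igf2bp1 and Igf2bp3, which bind Igf2 transcripts, were higher in eM by 0.82 and 0.73. Igf2bp1 read 10.45, 10.23 and 10.98 in wild-type and 10.13, 10.02 and 11.07 in mutant hearts. Igfbp3, a secreted binding protein of IGFs, had a difference of -0.80. Fibroblast markers were lower in the same hearts, as given above, and their part was not tested.

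Genes whose profile over the 6 hearts was most like that of Kcnq1ot1 were found by the root mean square difference after each gene was centred on its own mean, among 13133 genes outside the sex chromosomes. The nearest were 2310067E19Rik (0.21 log2), the integrin Itga4 (0.25), the giant sarcomere protein Ttn (0.28), the cartilage collagen Col2a1 (0.29) and the microtubule protein Map1b (0.30). Ttn, for one, read 11.68, 11.90 and 13.41 in wild-type and 11.88, 11.67 and 13.44 in mutant hearts. Since the hearts split by letters, any gene with a like step between eI and eM ranks high here. For Igf2 the nearest genes were Riok3, Med4, Lima1, Psmd4 and Pkn3, at 0.013 to 0.020 log2, all with hardly any spread over the hearts.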

How the data were processed

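The deposited values are log2 intensities per probe set, for which the submitters' processing notes name RMA, a summary of probes into probe sets, without a version. The authors' settings are not stated in the sources used here, and background level and saturation could not be checked. After 64 controls were left out, 45037 probe sets remained. The supplied platform annotation named 1 gene for 34945 probe sets, several for 932 and none for 9160. Probe sets in the lowest 40% by mean (below 5.38) were left out of tests. Each gene takes the values of the probe set with the highest mean.

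The genotype test was limma 3.58.1 under R 4.3.3 (two-sided, Benjamini-Hochberg over all genes or probe sets, threshold 0.05). Single values were compared with exact permutation tests. The members and lists were chosen with earlier results of these data known, and the letters contrast helped to choose them, so it was not tested. The fit was tested on simulated data. Text names the members, and from each list genes of largest difference by letters and of smallest p by genotype; Cd81, Osbpl5, Tssc4, Phlda2, Kcnq1, Slc22a18, Rian, Mirg, Igf1r, Tnni1, Dnmt1 and Zfp57 were named after their values were seen. Lists of cell type markers are given by list means. Replicates are separate mice, per the design text. Same-numbered hearts deviated together (r = 0.18, 0.36 and 0.74). Hearts of the same letters but different numbers did so too (r = 0.49 and 0.47), more than pairs 1 and 2. The correlations therefore do not show that the titles' numbers pair the hearts. The genotype fit and the permutation tests were unpaired, and a replicate block was run as an alternative. Alternatives tried were other filters, normalizations, blocks, an Xist covariate, eI hearts alone, the mean over probe sets and leaving out each heart. Figures used matplotlib 3.10.9.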

Additional observations from a re-analysis of the deposited data

Results flagged for a closer look

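Genes are listed here because both eI mutants lay above both eI wild-type hearts while the eM mutant lay below the eM wild-type heart. Genes whose eI hearts overlapped by genotype, such as Mest, are not listed even where the sign of the mean difference turned. For Meg3 the mutant difference in eM minus that in eI was -0.82, for Plagl1 -0.14 and for Igf2 -0.060. A limma interaction term did not call any of them (adjusted p = 0.695, 0.869 and 0.953), and the eM side holds 1 heart per genotype. Outliers were not looked for, since each genotype has 3 hearts.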

How the results depend on the processing

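Under the alternatives run, limma called 0 genes and 0 probe sets by genotype, except when single hearts were left out, where genes ranged from 0 to 2 and probe sets from 0 to 2. Without mutant 2 the calls were Eif2s3y and Xist, and without wild-type 3 a probe set of Rps9, none of them an imprinted gene studied here. The replicate block changed no call (0 genes, smallest adjusted p = 0.9993). Signs of differences near 0 turned. By quantile normalization the mutant difference was -0.0296 for Kcnq1ot1, -0.0209 for Cdkn1c and -0.0098 for Mest, and by median centring -0.0009 for Cdkn1c. With Xist as a covariate it was -0.68 for Kcnq1ot1 and -0.0746 for Mest. In eI hearts alone it was -0.0047 for Kcnq1ot1, -0.0011 for Cdkn1c and -0.0337 for Mest. As the mean over all probe sets it was -0.0024 for Kcnq1ot1, -0.12 for Peg3 and -0.0871 for Plagl1. Leaving out single hearts gave -0.74 to 0.73 for Kcnq1ot1, -0.035 to 0.0419 for Cdkn1c, -0.0003 to 0.062 for Igf2, -0.13 to 0.17 for Meg3, -0.0614 to 0.0911 for Peg3, -0.0554 to 0.049 for Mest and -0.0078 to 0.0758 for Grb10, and without a change of sign 0.0428 to 0.4772 for Dlk1. The cause was not tested. By letters, Kcnq1ot1 stayed between 2.15 and 2.25 without any 1 heart and was 1.45 as the mean over its 6 probe sets. The genes without overlap by letters numbered 5 of 9 by quantile normalization and 6 to 7 without any 1 heart.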

Other observations

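Genes that lay down or keep imprints were read from a list of 19, with 18 tested. Limma called 0 by genotype (lowest unadjusted p = 0.205, for Tet2). By letters, both eM hearts lay above all eI hearts at 11, below at 1 and overlapped at 6, with a median of 0.18 against -0.03 for all genes tested and 20.8% of all genes above. Smchd1, a chromatin protein of X inactivation and imprinting, read 9.56, 9.97 and 10.39 in wild-type and 9.92, 9.88 and 10.44 in mutant hearts, a difference of 0.58. Tet1, which oxidises methylated cytosine, was higher by 0.57, the histone methyltransferase genes Ehmt2 and Ehmt1 by 0.50 each, and Dnmt1, the maintenance methyltransferase, by 0.23. Zfp57, which guards imprints in the early embryo, was the 1 gene lower, with a difference of -0.28.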
